A study of Mus musculus with 4 samples.

Results

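The 9 genes of a signalling family were followed across the cells of the mouse sciatic nerve: the EGF family ligands Btc, Hbegf, Areg, Ereg, Tgfa and Nrg1, and the ErbB receptors Egfr, Erbb2 and Erbb3. They were taken by gene name from 4 Drop-seq count tables, and stood among 22716 genes named in at least 1 table. All 9 were listed in the nerve 3 days post injury (3 DPI). The neonatal FACS table lacked Areg, the neonatal beads table lacked Areg and Ereg, and the uninjured table lacked Ereg and Nrg1. Each table listed only genes with at least 1 transcript, so a missing member had no transcript in that library.

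All animals were wildtype CD1 mice, and each library was 1 sample. The 3 DPI library came from the distal sciatic nerve of adults after unilateral resection, and the uninjured library came from intact adult nerve. The neonatal beads library (postnatal days 2 to 3) was prepared with myelin removal beads, as both adult libraries were, while the neonatal FACS library (postnatal days 3 to 4) was flow sorted. All nerves were dissociated with collagenase and trypsin. Since there was 1 library for each condition, no difference between conditions has a replicate check and no p-value is given. The neonatal libraries differed from each other in age and in preparation, which cannot be told apart.

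The EGF family ligands are made as transmembrane precursors, and most are shed from the cell surface by metalloproteases before they bind receptors on the same or neighbouring cells. EGFR binds betacellulin (Btc), heparin-binding EGF-like growth factor (Hbegf), amphiregulin (Areg), epiregulin (Ereg) and transforming growth factor alpha (Tgfa), whereas ERBB3 binds neuregulins and signals mainly through its partner ERBB2, which has no known ligand of its own. In peripheral nerve, axonal neuregulin 1 (Nrg1) acts on ERBB2 and ERBB3 in Schwann cells and governs their survival, proliferation and myelination.

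The tables held 2000 to 6200 cell barcodes and 4513814 to 8123103 unique molecular identifiers (UMIs, each 1 captured transcript), and pairs of libraries shared at most 1 retained barcode. After filtering, 2162 cells at 3 DPI, 1837 uninjured, 2191 neonatal FACS and 5420 neonatal beads cells were clustered without using the members, and clusters were called "-like" from marker genes. Sox10, the Schwann cell transcription factor, was detected in 33.3 to 38.4% of Schwann-like cells and in at most 5.26% of cells of any other class. Pdgfra was detected in 27.6 to 54.9% of mesenchymal-like cells. Levels are given as CPM, the UMIs of a gene among 1000000 UMIs summed over a class, and as the proportion of its cells in which the gene was detected. Brackets enclose 95% intervals (exact Poisson for CPM, exact Clopper-Pearson for shares, exact conditional binomial for ratios of CPM), which cover counting error only and not variation between animals. Intervals of CPM and of their ratios treat UMIs as independent, so they are too narrow where few cells hold many of the UMIs. Where no cell had a gene, the share said to be allowed is 3 divided by the number of cells. It is somewhat lower than the upper limit of the exact interval. The 3 DPI Schwann-like cells formed 1 cluster of 138 cells. The uninjured ones fell into non-myelinating-like (277) and myelinating-like (80) clusters. The neonatal ones comprised non-myelinating-like clusters, a dividing cluster, a cluster led by Pou3f1 and Egr2, and a myelinating-like cluster, which held 369 cells with FACS and 19 with beads. The non-myelinating-like clusters were led by Scn7a and Rxrg (143 FACS and 2378 beads cells), by Ttyh1 and Wwp1 (273 and 12) and by Lig1 and Uhrf1 (49 and 280). A 3 DPI against uninjured Schwann comparison is therefore also one of different mixtures, and the non-myelinating-like cells are given separately where this moves a value.

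Ereg, Areg and Btc lie side by side. On mouse chromosome 5 (GRCm38) Ereg spans 91074622 to 91093646 on the plus strand, Areg spans 91139599 to 91148432 on the plus strand, and Btc spans 91357261 to 91402994 on the minus strand. They were the only protein-coding genes in the 328 kb from the start of Ereg to the end of Btc. Promoter sequences of 5 of the 9 members were at hand, and those of Btc and Areg are shown because the 3 DPI Schwann-like cells, which had the highest level of Btc, had no Areg. Each runs from 250 bases before to 50 after the RefSeq start site (GRCm38.p6), 5′ to 3′ along the gene's own strand, chr5:91402945-91403244 on the minus strand for Btc and chr5:91139349-91139648 on the plus strand for Areg. Capitals mark matches, on either strand, to TATAAA, to the cyclic AMP response element TGACGTCA, to the AP-1 motif TGANTCA or to the GC box GGGCGG.
Btc: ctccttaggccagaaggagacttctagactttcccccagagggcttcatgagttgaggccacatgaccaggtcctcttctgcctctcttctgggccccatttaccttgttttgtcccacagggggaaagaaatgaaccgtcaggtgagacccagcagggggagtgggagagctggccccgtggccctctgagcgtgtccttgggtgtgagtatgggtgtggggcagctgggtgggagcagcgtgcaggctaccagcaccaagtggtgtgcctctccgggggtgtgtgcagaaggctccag
Areg: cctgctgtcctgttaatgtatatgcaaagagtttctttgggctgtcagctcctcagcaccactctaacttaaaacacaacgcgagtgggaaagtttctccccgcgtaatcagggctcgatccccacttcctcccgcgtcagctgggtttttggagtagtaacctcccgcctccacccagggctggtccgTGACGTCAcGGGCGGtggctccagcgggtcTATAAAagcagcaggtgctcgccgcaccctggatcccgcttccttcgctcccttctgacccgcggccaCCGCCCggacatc
The Areg window held TATAAA 31 bases before the start, TGACGTCA 61 bases before it, and GC boxes 52 bases before it and, on the other strand, 37 bases after it. None of these letters occurred in the Btc window. Of all 32851 RefSeq promoters of this length, 13.6% held TATAAA, 1.79% held TGACGTCA, 7.81% held TGANTCA and 35.7% held GGGCGG. The Areg window had 21 CpG dinucleotides and the Btc window had 5, against a median of 7 over all promoters. These matches describe letters and not occupied sites.

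The members divided by cell class in much the same way in all 4 libraries. Among members with at least 10 UMIs in a library, Btc, Hbegf, Erbb2 and Erbb3 had their highest CPM in Schwann-like cells at 3 DPI (4 of 7 members, against 25.7% of all genes), in the neonatal FACS library (4 of 6, against 21.0%) and in the neonatal beads library (4 of 5, against 32.4%). In the uninjured nerve Hbegf, Erbb2 and Erbb3 were highest in Schwann-like cells (3 of 5, against 29.3%), and Btc had too few UMIs to be placed. Egfr was the 1 member with its highest CPM in mesenchymal-like cells in every library, where 14.9% of all genes at 3 DPI, 14.0% in the FACS, 19.2% in the beads and 17.2% in the uninjured library had theirs. Some of these places were not resolved from the next class by counting error. In the FACS library this held for Hbegf, with 139 CPM in Schwann-like and 133 CPM in endothelial-like cells, for Erbb2 (37.1 and 21.7 CPM in the same classes) and for Btc (5.50 CPM, against 3.53 CPM in VSM/pericyte-like cells), and in the beads library it held for Btc (6.27 and 2.06 CPM). When cells were thinned to 500 UMIs, the share with Hbegf in the FACS library was highest in endothelial-like cells.

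**Figure D1:**
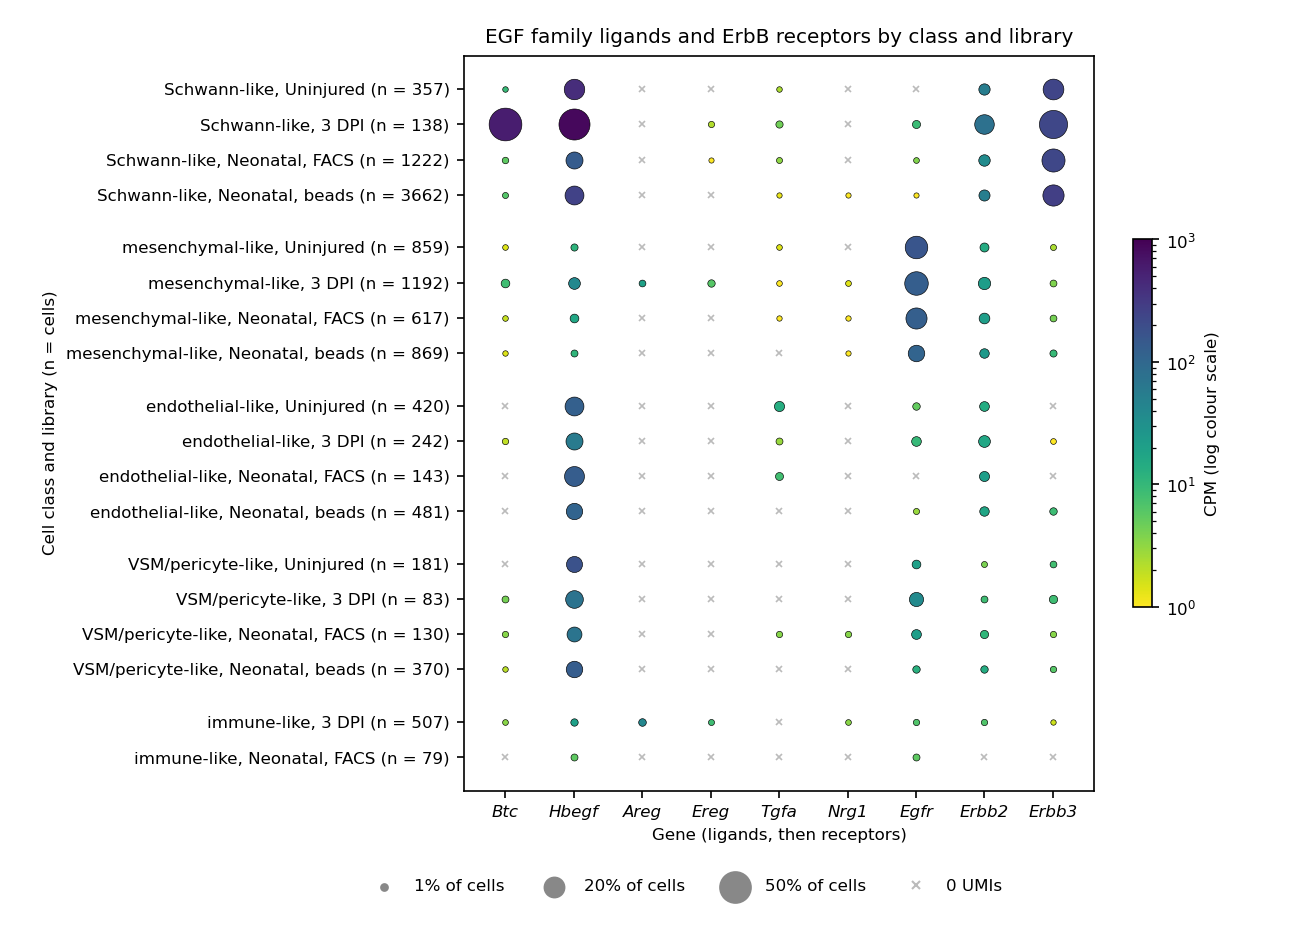
Each row is a cell class in 1 library (n, cells) and each column a member; dot area gives the share of cells in which it was detected, colour gives CPM on a log scale, and a cross marks 0 UMIs. Btc was detected in 57.2% of 3 DPI Schwann-like cells, whereas Erbb3 was found across all 4 Schwann-like rows and Egfr across all 4 mesenchymal-like rows.

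Btc was abundant in the Schwann-like cells at 3 DPI and scarce in those of the other libraries. It was detected in 79 of 138 Schwann-like cells at 3 DPI (57.2% [48.5 to 65.6]), with 260 UMIs or 580.5 CPM [512 to 655]. In the uninjured nerve 1 of 357 Schwann-like cells held all 4 Btc UMIs of that class, which came to 9.63 CPM. In the neonatal libraries 11 of 1222 FACS cells (5.50 CPM) and 22 of 3662 beads cells (6.27 CPM) had Btc. The 3 DPI level stood far above the upper bounds of the other libraries, which were 24.6, 9.61 and 9.25 CPM in the same order.

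The Btc CPM ratio of 3 DPI over uninjured Schwann-like cells was 60.3 [23.3 to 223], and it was 45.5 [17.6 to 168] against the uninjured non-myelinating-like cells alone. Against the neonatal cells the ratio was 106 [59.4 to 207] for FACS and 92.6 [61.4 to 146] for beads. The 3 DPI cells were deeper (median 2018 UMIs) than the uninjured ones (989), but the contrast held when each cell was thinned to 500 UMIs: 37 of 124 cells at 3 DPI (29.8%) and 0 of 341 uninjured cells, which allows a share of up to 0.880%. Endothelial-like cells at 3 DPI, which served as the measure of free RNA at a like depth (median 1982 UMIs), had Btc in 2 of 242 cells, or 1.93 CPM. The same class had it in 0 of 420 uninjured, 0 of 143 FACS and 0 of 481 beads cells, which allows shares of up to 0.714, 2.10 and 0.624%. The low shares over all uninjured or neonatal Schwann-like cells could not be set apart from these limits. In CPM, Btc was at 6.27 in Schwann-like and 0 in endothelial-like cells of the beads library, and at 5.50 and 0 in the FACS library. Of 9146 genes with at least 10 UMIs over both libraries, 10.2% were at least 3-fold higher at 3 DPI and 8.68% were at least 3-fold lower in Schwann-like cells; of the 4 members that could be assessed (Btc, Hbegf, Erbb2 and Erbb3), Btc was in the first set and none was in the second.

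Within the 138 Schwann-like cells, Btc-positive cells carried a median of 2 UMIs and at most 14. A single UMI was found in 29 of them and 5 or more in 22. Btc was not confined to cells in the cell cycle: it was detected in 27 of 39 cells with Top2a or Mki67, genes of dividing cells, and in 52 of 99 cells without, with 523 and 632 CPM respectively. Outside the Schwann-like cells the highest 3 DPI level was 18.1 CPM [11.5 to 27.2] in a dividing mesenchymal-like cluster led by Top2a and Il1rl1, where 15 of 163 cells had Btc. That cluster held 23 Btc UMIs. In the neonatal libraries the Pou3f1/Egr2 cluster had 12.9 CPM with FACS and 13.5 CPM with beads, from 6 cells each.

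Hbegf was present in Schwann-like, endothelial-like and vascular smooth muscle (VSM)/pericyte-like cells of all 4 libraries, and its levels at 3 DPI were higher than uninjured in the first and lower in the other two. In Schwann-like cells it reached 864 CPM [780.1 to 955] at 3 DPI, 419 CPM [359 to 486] uninjured, 139 CPM in the neonatal FACS and 259 CPM in the neonatal beads library. It was detected in 71 of 138 cells at 3 DPI (51.4%) and in 77 of 357 uninjured cells (21.6%), and at 500 UMIs in 24.2% and 14.1%. The order from 3 DPI through uninjured and neonatal beads to neonatal FACS was separated at each step by more than the counting error, but the last step compared different mixtures of clusters. The non-myelinating-like cells of the neonatal libraries were close to each other (FACS over beads 0.879 [0.741 to 1.04]), though these also joined clusters in different proportions.

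The Hbegf ratio of 3 DPI over uninjured Schwann-like cells was 2.06 [1.72 to 2.48], below the 3-fold mark. Against the uninjured non-myelinating-like cells, which had 516 CPM, it was 1.67 [1.39 to 2.02]. The ratio was 6.22 [5.34 to 7.26] against the neonatal FACS and 3.34 [2.96 to 3.76] against the neonatal beads Schwann-like cells. Against the non-myelinating-like cells alone these fell to 3.43 [2.86 to 4.12] and 3.01 [2.66 to 3.42]. Btc and Hbegf were thus the members at least 3-fold higher at 3 DPI than in either neonatal library, a change found in 7.55% (FACS) and 7.43% (beads) of all genes.

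Hbegf also differed between Schwann-like clusters of the same library. In the uninjured nerve it was at 118 CPM [60.8 to 206] in the myelinating-like cells, 4.39-fold lower than in the non-myelinating-like cells. In the neonatal FACS library it was at 252 CPM in non-myelinating-like cells (177 UMIs in 102 of 465 cells), 277 CPM in the dividing cluster, 62.7 CPM in the Pou3f1/Egr2 cluster and 17.1 CPM [8.51 to 30.5] in myelinating-like cells (11 UMIs in 7 of 369 cells). The myelinating-like level was 14.8-fold lower [8.06 to 30.1] than the non-myelinating-like one, and Hbegf was among the 12.8% of genes that were at least 3-fold lower there. The beads library gave 287, 317 and 62.5 CPM in its non-myelinating-like, dividing and Pou3f1/Egr2 clusters. The Pou3f1/Egr2 cluster had 0.249 [0.167 to 0.361] of the non-myelinating-like level with FACS and 0.218 [0.152 to 0.303] with beads, so both preparations gave the same order and a like ratio.

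**Figure D2:**
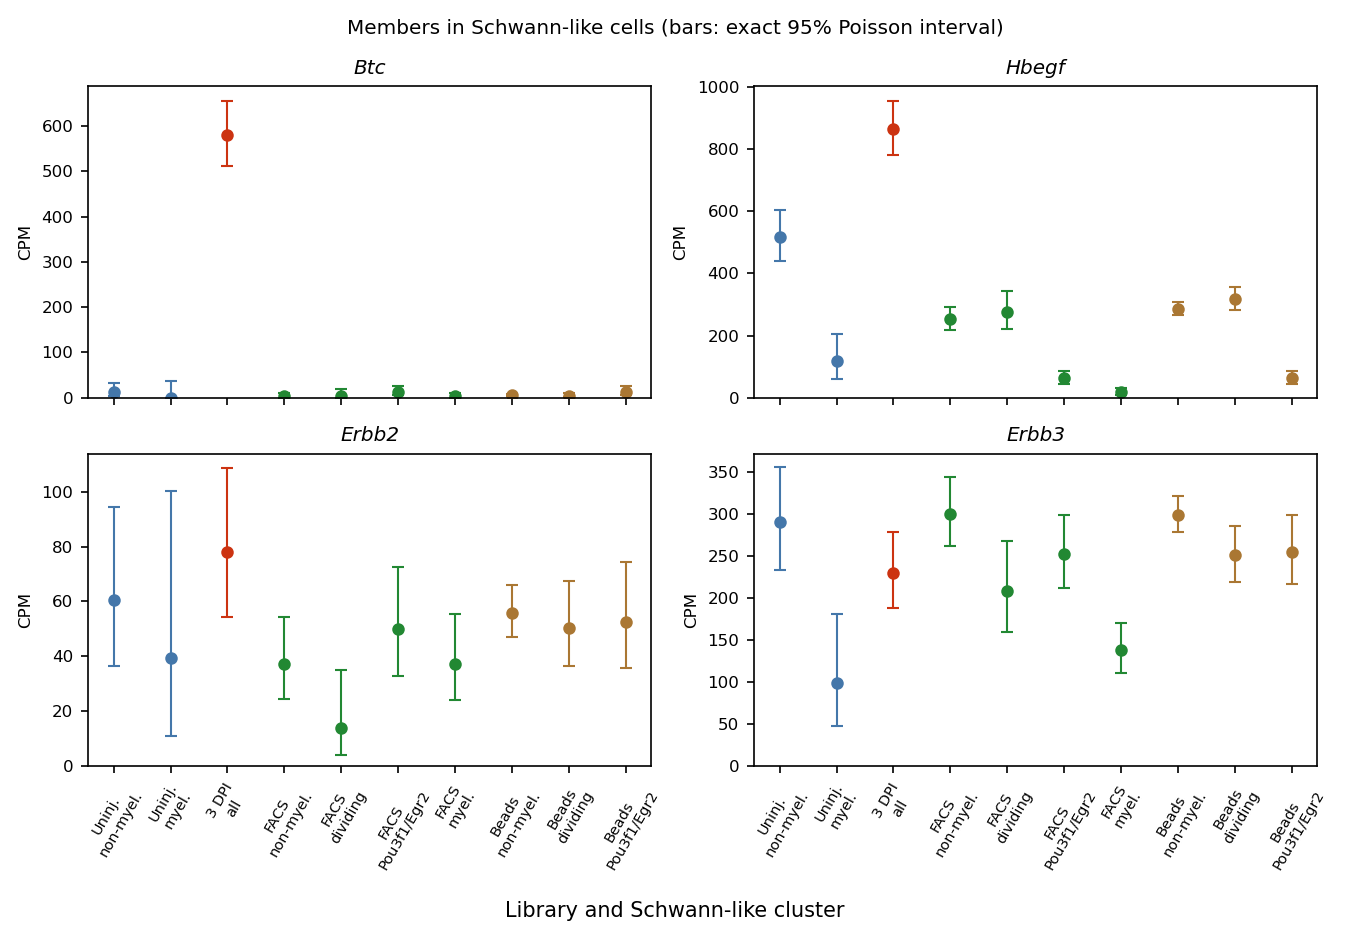
CPM of Btc, Hbegf, Erbb2 and Erbb3 (linear axes from 0, exact 95% Poisson bars) in each Schwann-like cluster, coloured by library. Only the 3 DPI point stood above the baseline for Btc (580.5 CPM), Hbegf and Erbb3 had their lowest values in myelinating-like and, for Hbegf, Pou3f1/Egr2 clusters, and the Erbb2 intervals mostly overlapped.

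In vascular cells the 3 DPI levels of Hbegf were lower. Endothelial-like cells had 57.9 CPM [44.2 to 74.5] at 3 DPI (35 of 242 cells), 122 CPM [104 to 143] uninjured (76 of 420 cells), 133 CPM with FACS and 111 CPM with beads. The endothelial-like ratio of 3 DPI over uninjured was 0.472 [0.345 to 0.639]. VSM/pericyte-like cells had 72.1 CPM at 3 DPI and 177 CPM uninjured, a ratio of 0.407 [0.218 to 0.726]. This ratio set the single 3 DPI cluster, led by Rgs5 and Acta2, against a pair of uninjured clusters that themselves differed, so a change in level and a change in mixture cannot be told apart. In the uninjured nerve, the VSM/pericyte-like cluster led by Myh11 and Acta2, contractile genes of smooth muscle, held 266 CPM [191 to 360.4], and the cluster led by Rgs5 and Kcnj8, genes of pericytes, held 31.9 CPM [6.59 to 93.4]. The 3 uninjured endothelial-like clusters were closer together at 91.9 to 161 CPM. Mesenchymal-like cells had 39.4 CPM at 3 DPI and 11.6 CPM uninjured, and 84.2 CPM in the dividing cluster at 3 DPI, where 28 of 163 cells had Hbegf.

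**Figure D3:**
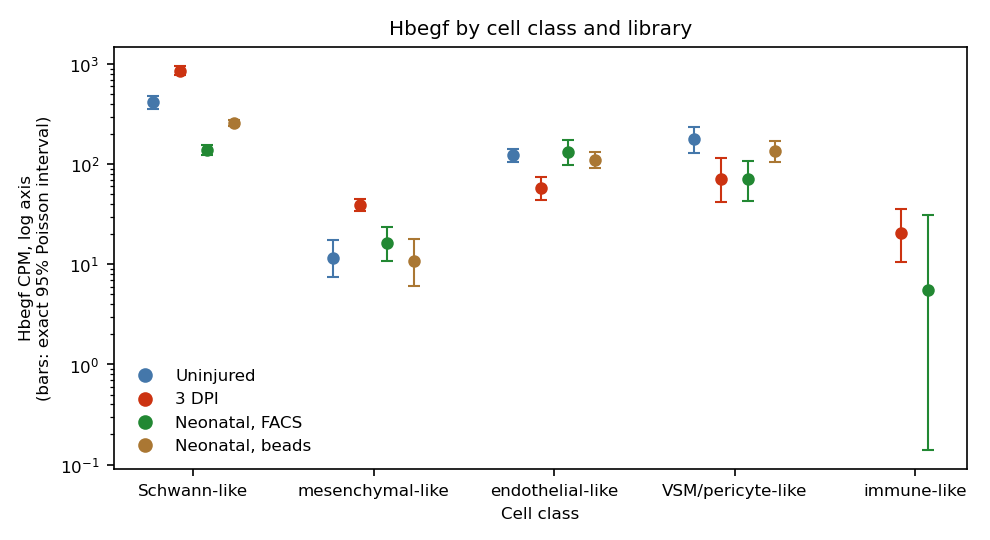
Hbegf CPM (log axis, exact 95% Poisson bars) in each class, coloured by library; the immune-like class is shown where it held at least 50 cells. The 3 DPI point was the highest of the Schwann-like points (864 CPM) and lay below the uninjured point in endothelial-like and VSM/pericyte-like cells.

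Btc and Hbegf were found together in many of the same Schwann-like cells at 3 DPI. Both were detected in 51 of 138 cells (37.0%) and at least 1 of them in 99 cells (71.7%). Btc was detected in 51 of 71 Hbegf-positive cells and in 28 of 67 Hbegf-negative cells. Cell depth moved with this, since the Hbegf-positive cells had a median of 3275 UMIs and the negative cells 1103, and its part in the result was not tested. Among Hbegf-positive Schwann-like cells the median was 3 UMIs and the highest 31.

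Areg was found in few cells and only at 3 DPI among the retained cells. The 121 UMIs lay in 22 of 2162 cells, 1 of which held 34 of them, and 3 of which held 65. The dividing mesenchymal-like cluster had 94 UMIs in 10 of 163 cells (74.0 CPM [59.8 to 90.5]), with 49 UMIs in 6 of its 133 cells with Top2a or Mki67 (45.2 CPM) and 45 UMIs in 4 of its 30 cells without (241 CPM). Lymphoid-like cells had 15 UMIs in 4 of 75 cells (235 CPM [132 to 388]) and macrophage/monocyte-like cells 9 UMIs in 5 of 392 cells (17.9 CPM). No Areg was found in the Schwann-like, endothelial-like or VSM/pericyte-like cells at 3 DPI, and 0 of 138 Schwann-like cells allows a share of up to 2.17%. The CPM of Areg thus rested on a handful of cells with many UMIs each. In the uninjured library 4 UMIs of Areg lay in barcodes that did not pass the filters.

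Ereg was also found mainly at 3 DPI and in few cells. It had 37 UMIs in 23 cells at 3 DPI, of which 18 UMIs lay in 9 of 163 dividing mesenchymal-like cells (14.2 CPM), 6 UMIs each in the endoneurial-like and bridge-like cells (the latter defined by Dlk1, Mest and Lrrc15), 5 in macrophage/monocyte-like cells and 1 in Schwann-like cells. Unlike Areg, it had no UMI in the 75 lymphoid-like cells. The other libraries together held 1 Ereg UMI, in the neonatal FACS library. Of the 22 Areg-positive cells 3 also had Ereg. The dividing cluster was deep (median 5841 UMIs, against 2018 in the Schwann-like cells). With its cells thinned to 500 UMIs, Areg was found in 6 of 161 and Ereg in 0 of 161, which allows a share of up to 1.86%.

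Tgfa was found at a low level, and 18 of its 49 UMIs in all retained cells lay in endothelial-like cells of the uninjured nerve. In the uninjured nerve 18 of 420 endothelial-like cells each had 1 UMI (13.5 CPM [8.02 to 21.4]), and 15 of the 18 lay in the cluster led by Slco1a4, Cldn5 and Mfsd2a, genes of barrier-forming endothelium, at 32.7 CPM [18.3 to 54.0]. The cluster led by Darc and Selp, genes of venular endothelium, had 3 UMIs (5.61 CPM), and the cluster led by Rbp7 and Ccl21a had 0 of 147 cells, which allows a share of up to 2.04%. At 3 DPI 3 of 242 endothelial-like cells had Tgfa (2.89 CPM), a ratio of 0.214 [0.0404 to 0.733] to the uninjured level. This put Tgfa among the 3.14% of genes that were at least 3-fold lower at 3 DPI in endothelial-like cells, as 1 of 4 members that could be assessed there (Hbegf, Tgfa, Egfr and Erbb2), with an interval that reached well above that limit. The 3 DPI endothelial-like class was a single cluster, led by Lrg1 and Plvap, and the uninjured clusters differed in Tgfa. A change in level and a change in mixture therefore cannot be told apart. The neonatal endothelial-like cells had 3 UMIs with FACS (8.12 CPM) and 0 in 481 cells with beads. With FACS, VSM/pericyte-like cells had 3.53 CPM and Schwann-like cells 3.21 CPM. In the uninjured nerve Schwann-like cells had 2.41 CPM and mesenchymal-like cells 1.46 CPM. In neither library was the endothelial-like level resolved from the next class by counting error.

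Nrg1 was close to undetected. Its 16 UMIs lay in 14 cells of the 3 libraries that listed it: 9 UMIs at 3 DPI (5 in the dividing mesenchymal-like cluster, 2 in bridge-like and 2 in macrophage/monocyte-like cells), 2 with FACS and 5 with beads, of which 4 were in Schwann-like cells. None of 138 Schwann-like cells at 3 DPI had Nrg1, which allows a share of up to 2.17%, and none of 357 uninjured cells, which allows 0.840%. No ratio could be formed, and a change in Nrg1 was not detectable at this depth. Neuronal cell bodies, the source of axonal Nrg1, lie outside the sciatic nerve, and counts per gene do not separate the isoforms of Nrg1.

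Erbb3, the neuregulin-binding receptor, marked Schwann-like cells in all 4 libraries. It had 230.0 CPM at 3 DPI (58 of 138 cells), 243 CPM uninjured (79 of 357 cells), 228 CPM with FACS and 280.2 CPM with beads. With cells thinned to 500 UMIs the shares were 10.5, 11.1, 10.04 and 12.8% in the same order. The ratio of 3 DPI over uninjured was 0.946 [0.712 to 1.26], that over FACS 1.01 [0.807 to 1.25] and that over beads 0.821 [0.664 to 1.005]. All these intervals reached equal levels, and none reached 3-fold in either direction. Endothelial-like cells, the measure of free RNA, had Erbb3 in 0 of 420 uninjured cells and 1 of 242 cells at 3 DPI, and no other class exceeded 16.4 CPM.

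Within Schwann-like cells Erbb3 was highest in non-myelinating-like cells, at 290 CPM uninjured, 300.4 CPM with FACS and 299 CPM with beads. Myelinating-like cells had 98.1 CPM uninjured and 138 CPM with FACS, or 0.338 [0.157 to 0.651] and 0.459 [0.354 to 0.591] of the non-myelinating-like level. The Pou3f1/Egr2 cluster lay between, at 253 CPM with FACS and 255 CPM with beads. Against the uninjured non-myelinating-like cells alone, the 3 DPI ratio was 0.793 [0.592 to 1.06]. It was 0.765 [0.599 to 0.973] against those of the FACS library and 0.769 [0.619 to 0.946] against those of the beads library, both beyond the counting error and short of 3-fold.

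Erbb2, the partner receptor, was found in most classes and was highest in Schwann-like cells. There it had 78.1 CPM at 3 DPI (27 of 138 cells), 55.3 CPM uninjured (20 of 357 cells), 37.1 CPM with FACS and 54.1 CPM with beads. The ratio of 3 DPI was 1.41 [0.811 to 2.50] over uninjured, 2.10 [1.37 to 3.17] over FACS and 1.44 [0.980 to 2.07] over beads. Of these, the comparison with FACS exceeded the counting error. Mesenchymal-like cells had 14.6 to 24.7 CPM and endothelial-like cells 14.3 to 21.7 CPM over the 4 libraries. Both Erbb2 and Erbb3 were seen in 17 of 138 Schwann-like cells at 3 DPI. The Erbb2 gene overlaps Mien1 on the opposite strand, and the sources used here do not state whether the counting used strand.

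Egfr, the receptor for the remaining ligands, was a mesenchymal-like gene and was nearly missing from Schwann-like cells. Mesenchymal-like cells had 132 CPM at 3 DPI, 163 CPM uninjured, 128 CPM with FACS and 111 CPM with beads. Schwann-like cells had it in 3 of 138 cells at 3 DPI (8.93 CPM), 0 of 357 uninjured, 5 of 1222 with FACS and 3 of 3662 with beads. At 3 DPI the share in Schwann-like cells lay near that of the classes taken as background for free RNA, since endothelial-like cells had 9.65 CPM and immune-like cells 6.79 CPM. VSM/pericyte-like cells had 12.3 to 38.1 CPM. At 3 DPI Btc and Egfr thus had their highest CPM in different classes.

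Endoneurial-like cells, the mesenchymal cells that lie among the axons, had 207 CPM [185 to 231] of Egfr at 3 DPI (127 of 276 cells, 46.0%), 179 CPM [154 to 206] uninjured (132 of 417 cells, 31.7%), 184 CPM with FACS (47 of 109 cells) and 142 CPM with beads (57 of 280 cells). The ratio of 3 DPI was 1.16 [0.964 to 1.39] over uninjured and 1.13 [0.874 to 1.47] over FACS, within the counting error, and 1.46 [1.13 to 1.90] over beads, beyond it. Endoneurial-like Erbb2 had 25.1 CPM at 3 DPI and 11.3 CPM uninjured, a ratio of 2.22 [1.14 to 4.66], and Hbegf had 26.4 and 17.9 CPM, a ratio of 1.48 [0.830 to 2.70]. None of the 3 members assessed in endoneurial-like cells was past 3-fold, where 9.34% of all genes were at least 3-fold higher and 4.51% at least 3-fold lower.

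The other mesenchymal-like groups differed in Egfr. Epineurial-like cells had 131 CPM at 3 DPI and 159 CPM uninjured, while the cluster led by Inmt and Comp had 101 CPM and 165 CPM, a ratio of 0.612 [0.434 to 0.852]. Bridge-like cells and the dividing cluster, both of 3 DPI, had 99.99 and 84.2 CPM. Perineurial-like cells, which form the sheath of the fascicle, had Egfr in 3 of 65 uninjured cells (23.7 CPM [4.89 to 69.3]), in 63 of 244 FACS cells (119 CPM) and in 46 of 424 beads cells (89.3 CPM). Relative to the endoneurial-like cells of the same library this was 0.133 [0.027 to 0.394] uninjured, 0.645 [0.469 to 0.889] with FACS and 0.628 [0.440 to 0.893] with beads. The uninjured value rested on 3 UMIs, and its interval lay below both neonatal ones.

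**Figure D4:**
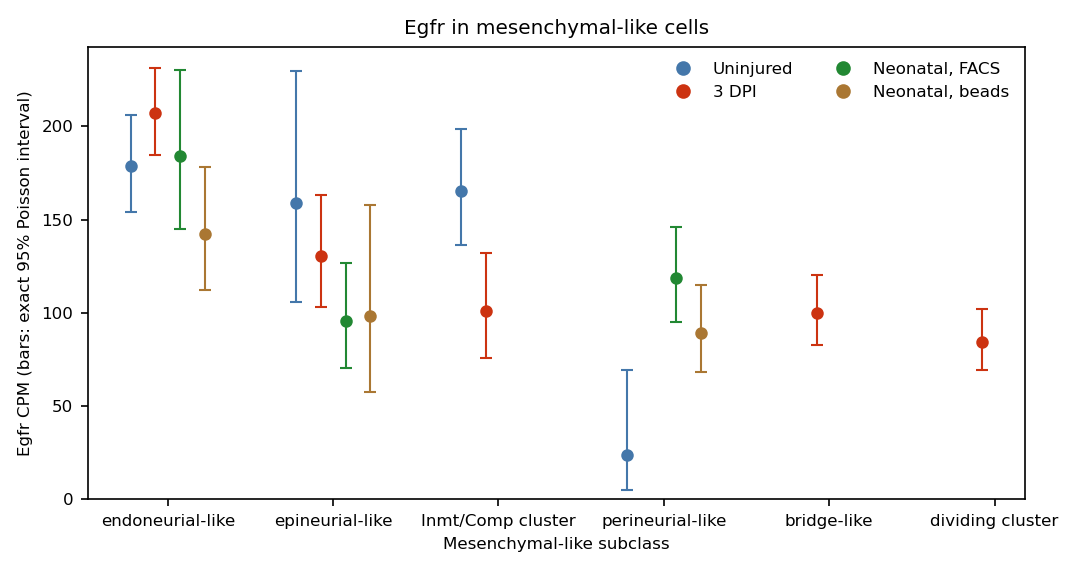
Egfr CPM (linear axis from 0, exact 95% Poisson bars) in the mesenchymal-like subclasses, coloured by library; bridge-like cells and the dividing cluster were found at 3 DPI, and perineurial-like cells in the other libraries. Endoneurial-like points lay at 142 to 207 CPM, and the uninjured perineurial-like point was the lowest at 23.7 CPM.

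The other ligands and the remaining receptor added little. Epgn, Egf, Nrg2 and Nrg4 had few UMIs and Nrg3 was in no table, so none could be assessed. Erbb4 had 8 UMIs in 6 of 369 myelinating-like cells of the neonatal FACS library (12.4 CPM) and none in its non-myelinating-like cells.

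The genes that process the ligands and limit the receptors did not pass 3-fold in 3 DPI Schwann-like cells. Of all genes, 10.2% were at least 3-fold higher there and 8.68% at least 3-fold lower, and whether these small groups differed from that was not tested. None of 6 ligand-processing genes (sheddases, their partners and a ligand-associated tetraspanin) passed 3-fold, with a median log2 ratio of -0.35 against 0.11 over all genes. Among them Cd9, the tetraspanin that associates with the HBEGF precursor, had a ratio of 0.390 [0.349 to 0.436], and Rhbdf1, a partner of the sheddase ADAM17, had 2.05 [1.06 to 4.18]. Adam17 itself had a ratio of 0.732. None of 8 feedback genes passed 3-fold (median log2 ratio -0.65), and Rnf41, a ubiquitin ligase for ERBB3, had 0.444 [0.195 to 0.948].

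Some downstream genes passed 3-fold, where 10.2% of all genes were at least 3-fold higher and 8.68% at least 3-fold lower. Of 5 adaptors, Shc1 was higher at 3 DPI with a ratio of 3.94 [1.29 to 16.1], while Sos1 (0.241 [0.088 to 0.566]) and Gab1 (0.313 [0.191 to 0.499]) were lower. Of 10 genes known to respond to ERK signalling, Fosl1 was higher, with 29 UMIs at 3 DPI and none in the uninjured cells. The ratio was 8.97 with the latter set at 3 counts, which leaves out the counting error of the 29 UMIs. Fos (1759 CPM at 3 DPI and 14621 CPM uninjured, ratio 0.120), Egr1 (927 and 5604 CPM, ratio 0.165) and Dusp6 (167 and 1138 CPM, ratio 0.147) were lower. The genes of this list therefore did not move one way at 3 DPI.

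**Figure D5:**
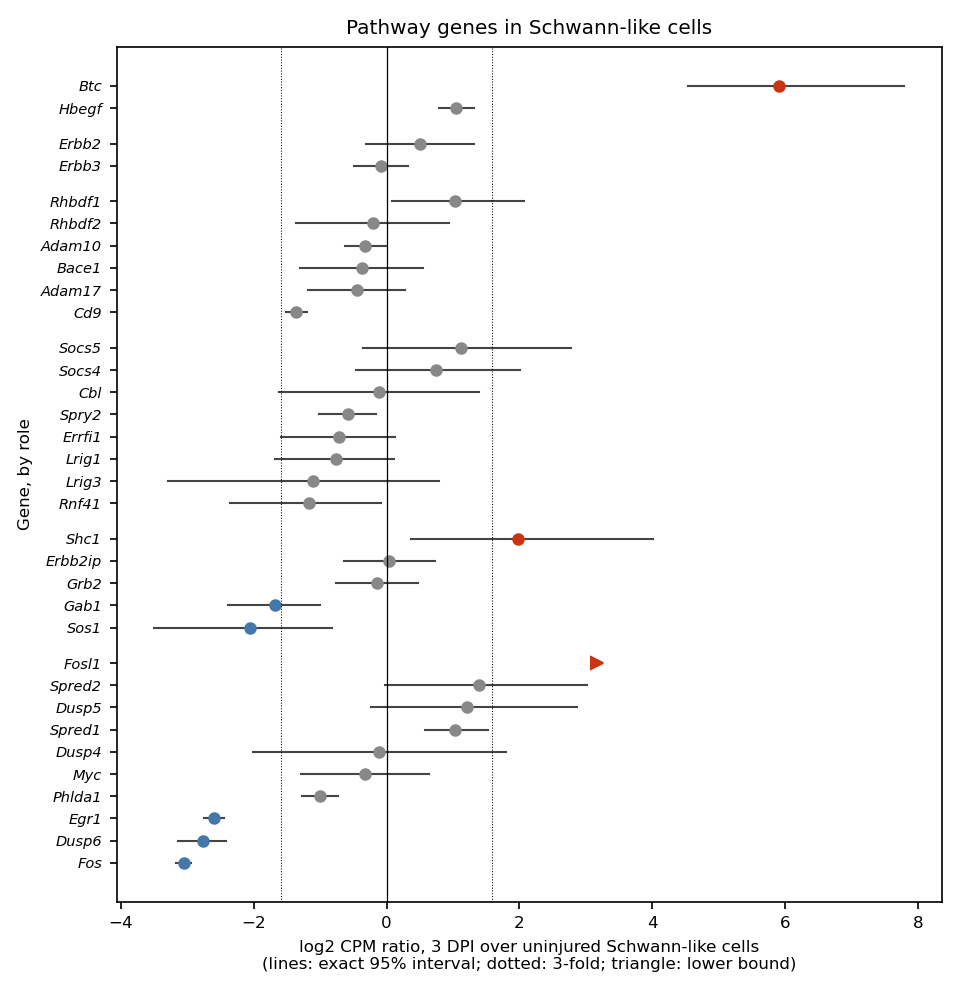
log2 CPM ratio of 3 DPI over uninjured Schwann-like cells for the members and the pathway genes with at least 10 UMIs, grouped by role; lines are exact 95% intervals, dotted lines mark 3-fold, and red and blue mark genes past it. The triangle (Fosl1, labelled as a lower bound) sets the uninjured level at 3 counts and leaves out counting error. Btc lies farthest to the right with a ratio of 60.3, while Fos, Dusp6 and Egr1 lie farthest to the left.

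In endoneurial-like cells, where Egfr was found, 3 of 11 response genes were higher at 3 DPI and 3 were lower, against 9.34% and 4.51% of all genes. Fosl1 was again higher, with 36 UMIs at 3 DPI and none uninjured (ratio 8.41 with the latter set at 3 counts). Dusp5 (ratio 5.52) and Spred1 (4.10) were the others higher. Fos (0.163) and Egr1 (0.273) were again lower, beside Myc (0.268). Dusp6, which was lower in the Schwann-like cells, had a ratio of 1.65 [1.46 to 1.88] here. Of 10 feedback genes 1 was higher, Lrig1, an inhibitor of ErbB receptors, with a ratio of 3.11 [1.49 to 7.30], and none of 5 processing genes passed 3-fold. Of 6 adaptors 1 was higher, the PI3-kinase subunit Pik3r3, with a ratio of 5.37 [2.29 to 15.4]. Dusp5, Spred1, Myc and Pik3r3 are named because they made up these counts, after their values were seen. In endothelial-like cells none of 6 processing, 9 feedback, 6 adaptor or 8 response genes passed 3-fold. Few genes of any kind did so downward there, with 3.14% of all genes at least 3-fold lower. The share at least 3-fold higher is not given, so these counts do not set the pathway genes apart.

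Across 36 sums of cells, each a class or cluster of 1 library with at least 50 cells, the genes most like each member were ranked by correlation. The correlations of log2(CPM + 10) are descriptive, since the sums share libraries and depth. The most similar genes were Ucn2 (0.93), Gdnf (0.85) and Mmp17 (0.81) for Btc, and Acadl (0.83), Pafah1b1 (0.82) and Ppp2r2a (0.80) for Hbegf. Il1rl1 (0.92), Trbc2 (0.88) and Gm24870 (0.87) were closest to Areg, and Col6a2, Ctsk and Creb3l1 (0.94 each), genes of connective tissue cells among them, were closest to Egfr. Ppp1r14c, Sox2ot and Igsf11 (0.98 each) followed Erbb3, and Tead1 (0.85), Tubb2b (0.81) and Serinc5 (0.80) followed Erbb2. Between members the correlation was 0.72 for Erbb2 and Erbb3, 0.64 for Hbegf and Erbb3, 0.46 for Btc and Hbegf, and -0.55 for Egfr and Erbb3.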

How the data were processed

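Single cells of 4 mouse sciatic nerve libraries were profiled by Drop-seq, which captures the 3′ ends of transcripts. The deposited tables hold raw counts of UMIs per gene and cell barcode, not normalized, made by the authors against the mm10 build per the labels. The aligner settings and the use of strand are not stated in the sources used. The tables were used as counts throughout, and every column belonged to a sample.

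Barcodes with at least 200 genes, at most 10% mitochondrial and at most 5% haemoglobin UMIs were retained. A doublet caller (scrublet in scanpy 1.11.5, Python 3.11.15) marked 2 to 12 barcodes per library, under 0.5% and too few to be relied on, so the 5% of barcodes with the highest scores were removed. Counts were normalized with scran 1.30.0 and clustered in Seurat 5.3.0 (R 4.3.3) on 2000 variable genes and 20 principal components at resolution 0.4, with both neonatal libraries pooled. The members and the pathway genes were left out of the variable genes. A cluster took the class whose markers were highest in it, with at least 3 markers, and the cluster led by Pou3f1 and Egr2, which had 2, was left unnamed. The classes were rebuilt here and may differ from the study's.

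UMIs were summed over a class. A gene was assessed where both libraries of a ratio had at least 10 UMIs together, and was called past 3-fold at a ratio of at least 3 in either direction. A class at 0 was set to 3 counts. For shares at equal depth each cell was thinned to 500 UMIs, and shallower cells were left out. Intervals used scipy 1.17.1. The ratio and its interval were tested on simulated independent Poisson counts, which the interval assumes, so the gathering of UMIs in single cells was not tested. All 9 members are named, at most 4 genes of each pathway role by the largest Schwann-like ratio, and for each member with at least 50 UMIs the 3 genes of highest correlation. The members, markers and lists were chosen with earlier results of these data known. Alternatives covered the filters, doublets, normalization, resolution, assignment of each cell from its own markers, scaling, comparator, minimum UMIs, pseudocount and separate neonatal clustering. The neonatal non-myelinating-like comparator was added after seeing the data.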

Additional observations from a re-analysis of the deposited data

Results flagged for a closer look

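The Hbegf level at 3 DPI moved in opposite directions in different classes of the same libraries. The ratio of 3 DPI over uninjured CPM was 2.06 in Schwann-like, 0.472 in endothelial-like and 0.407 in VSM/pericyte-like cells. Mesenchymal-like cells as a whole were also higher, at 39.4 CPM at 3 DPI and 11.6 CPM uninjured. No ratio was formed for them, and the libraries held different mesenchymal-like clusters. With 1 library per condition, the difference between the classes was not tested. Against the uninjured non-myelinating-like cells alone the Schwann-like ratio was 1.67. The uninjured VSM/pericyte-like class joined clusters at 266 and 31.9 CPM while the 3 DPI class was 1 cluster, so level and mixture cannot be told apart there. At 3 DPI the median depth was 2018 UMIs in Schwann-like and 1982 UMIs in endothelial-like cells, and uninjured it was 989 and 1874 UMIs.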

How the results depend on the processing

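Among ratios past 3-fold, the Btc ratio over uninjured cells and the Btc and Hbegf ratios over neonatal Schwann-like cells were recomputed. None of these changed direction, and the neonatal ratios were recomputed only with another comparator. The other ratios past 3-fold were not recomputed. The Btc ratio of 3 DPI over uninjured Schwann-like cells ran from 45.5 to 62.9 over 8 alternatives, the Erbb3 ratio from 0.786 to 0.999, the Hbegf ratio from 1.65 to 2.33 and the Egfr ratio in endoneurial-like cells from 0.922 to 1.19. Assigning each cell from its own markers lowered the Btc share to 47.9%, the Hbegf ratio to 1.65 and the Egfr ratio from 1.16 to 0.922, which turned its direction, with intervals that included equal levels on both sides. Thinning to 500 UMIs lowered the share with Btc to 29.8% and with Hbegf to 24.2%. Taking the uninjured non-myelinating-like cells alone gave an Hbegf ratio of 1.67. Taking the neonatal non-myelinating-like cells alone, a choice made after seeing the data, moved the FACS ratios of Hbegf from 6.22 to 3.43 and of Erbb3 from 1.01 to 0.765. Of 650 CPM values of members by class, 618 stayed within the reported interval and 32 did not, 16 of them under assignment from own markers. The Nrg1 ratio could not be formed under any alternative, since both groups had 3 UMIs or fewer. A further 31 CPM values were not computed because the class had under 50 cells or was not named, 18 of them under own markers (all those of the 3 DPI dividing cluster, and Areg in lymphoid-like cells among them), 5 under library-size normalization (neonatal perineurial-like cells), 4 with at least 500 genes per cell, 3 with at most 5% mitochondrial UMIs and 1 with separate neonatal clustering. At 500 UMIs the class with the highest share differed from that with the highest CPM for Hbegf and Tgfa in the FACS library and for Ereg at 3 DPI. The cause of these shifts was not tested beyond the fewer transcripts per cell after thinning. No paired analysis was possible because each condition had 1 library. Depth limited Nrg1, Ereg and Tgfa most, with 16, 38 and 49 UMIs in all retained cells.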
